A study of Mus musculus with 4 samples.

Results

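The Gdf10/Ecrg4 cells were cells of the ligated mouse carotid artery in which a score of 8 genes, Gdf10, Ecrg4, Cst3, Crispld1, Comp, Cp, Sfrp2 and Abi3bp, was the highest of 3 scores. Each score was the mean over its genes of log2(value + 1), where a value was the number of UMIs (unique molecular identifiers, 1 for each captured transcript) per 10000 UMIs of the cell. The scores were then set as z scores over all cells of both ligation libraries. A cell was a member where this score, score C, lay above score A (Sparcl1, Tcap, Sphkap, Rbp4, Ccdc3 and Nudt4) and score B (Igfbp2, Filip1l, Col14a1, Actg2, Ankrd1, Postn and Ccn5) and had a z of at least 0.5. The rule took 2082 of 10359 ligation cells, within 12790 cells in the 4 libraries of the series. Cells in which score A or score B was highest, with the same limit of 0.5, served for comparison and are called Sparcl1/Rbp4 cells (2980) and Igfbp2/Postn cells (2631).

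The study asked how telomere damage and senescence alter vascular smooth muscle cells (VSMCs), using a mutant of TRF2, a telomere-binding protein of the shelterin complex. The left common carotid artery of male C57Bl6/J mice (C57Bl/6 in the labels) aged 4 to 5 months was tied, which provokes growth of a neointima, and cells were collected 28 days later. One library came from Sm22a-Trf2T188A mice, here Trf2T188A, in which a minimal Sm22a promoter active in arterial VSMCs drives the mutant, and the other from wild-type littermates, here control. The adventitia and stretches of vessel that had not remodelled were dissected away before digestion, and the labels of these libraries name no lineage reporter. How many mice each library pooled is not stated in the sources used here. With 1 library per genotype and cells that are not replicates, no difference was tested, and every value below is a description in which intervals cover counting error only.

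VSMCs of a healthy artery express contractile proteins and sit in a matrix of elastin and basement membrane. After injury they can lose contractile proteins and make fibrillar collagens, small proteoglycans and secreted regulators, a state called de-differentiated or fibromyocyte. Gdf10 encodes a secreted ligand of the TGFb/BMP superfamily, and Ecrg4 a secreted peptide precursor linked to growth arrest.

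The control library held 4967 cells with 47713453 UMIs (median 8631 per cell), and the Trf2T188A library 5392 cells with 67426588 UMIs (median 11153). Among the Gdf10/Ecrg4 cells the median was 8322 UMIs in control and 10966 in Trf2T188A, so that shares of members with a UMI are also given after thinning each cell to 5000 UMIs, with the 85 control and 39 Trf2T188A members below that depth left out. Mitochondrial transcripts made up a median of 1.40% and 1.61% of their UMIs, below the 1.93% and 2.07% of Sparcl1/Rbp4 cells. The libraries shared 10 cell barcodes, of which 4 were on Gdf10/Ecrg4 cells, and no barcode was a member in both. Of 10 endothelial markers, Cdh5 had 0 and 1 UMIs in all members, and the summed level of the list was 0.220 and 0.217 UMIs per 10000, against 43.5 and 31.8 in the 228 cells that carried at least 3 endothelial or 3 immune markers. Of 10 immune markers the summed level was 0.212 and 0.487, against 40.6 and 98.4. These 228 cells, called endothelial or immune cells below, are given beside members for shares, with median depths of 9947 and 10533 UMIs. They set no floor for shares, since Dcn, for example, had a UMI in 58.9% and 48.9% of them. Members numbered 4 among them, 2 in each library.

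Gdf10/Ecrg4 cells made up 20.8% of the control library (1031 cells, 95% exact binomial interval 19.6 to 21.9) and 19.5% of the Trf2T188A library (1051 cells, 18.4 to 20.6). Sparcl1/Rbp4 cells made up 24.5% (23.3 to 25.7) and 32.7% (31.5 to 34.0), and Igfbp2/Postn cells 26.5% (25.3 to 27.7) and 24.4% (23.3 to 25.6). The intervals of members overlapped and those of Sparcl1/Rbp4 cells did not. They cover counting error only, with 1 library per genotype, so neither reading compares the genotypes. A cell could be in only 1 class, so the shares depend on each other. The class had no sharp edge. The 64 control and 55 Trf2T188A members just inside the limit (z from 0.5 to 0.6) had 3.01 and 3.13 UMIs of Gdf10 per 10000, and the 65 and 41 cells just outside it (z from 0.4 to 0.5) had 2.10 and 2.07. Myh11, the smooth muscle myosin heavy chain, stood at 25.3 and 20.7 just inside and at 22.6 and 23.4 just outside. Members reached a z of 4.09 in control and 5.04 in Trf2T188A, with medians of 1.45 and 1.55.

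The cells were chosen by their levels of the score genes, so the levels of the score C genes describe the class and are no finding. Levels are UMIs of the gene per 10000 UMIs pooled over the cells of a class, given for control and then Trf2T188A. Gdf10 was at 6.86 (95% exact Poisson interval 6.70 to 7.02) and 7.12 (6.97 to 7.26), against 0.536 and 0.561 in Sparcl1/Rbp4 cells and 0.495 and 0.596 in Igfbp2/Postn cells. It had a UMI in 91.0% and 92.0% of members (85.2% and 83.7% thinned), against 10.5% and 11.3% of endothelial or immune cells. Gdf10 was thus seen in nearly every member of both libraries. Ecrg4 was more unevenly spread, with a level of 2.47 and 4.11 and a UMI in 40.9% and 53.7% of members (31.6% and 41.5% thinned), and the 5 richest cells held 24.7% and 13.0% of its UMIs. Endothelial or immune cells had a UMI of Ecrg4 in 23.2% and 12.8%. The share was lower in Sparcl1/Rbp4 cells, at 6.58% and 9.29%, and in Igfbp2/Postn cells, at 4.49% and 11.6%.

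The remaining score genes ranged from specific to general. Comp, a pentameric matrix protein of cartilage and tendon, was at 3.95 and 3.84, against 0.351 and 0.361 in Sparcl1/Rbp4 cells. Cp, ceruloplasmin, the copper-carrying ferroxidase, was at 2.26 and 2.49, against 0.307 and 0.284 in Sparcl1/Rbp4 cells and 0.0337 and 0.0899 in Igfbp2/Postn cells. Crispld1, a secreted cysteine-rich protein, was at 5.31 and 4.16. Sfrp2, a secreted Wnt modulator, separated the class least from Igfbp2/Postn cells, at 12.2 and 14.4 against 5.61 and 8.21. Abi3bp, a matrix protein, stood at 4.58 and 4.16, against 2.03 and 1.56 in Sparcl1/Rbp4 cells. Cst3, cystatin C, an inhibitor of cysteine proteases made by most cell types, was at 139 and 140 and detected in all members. Members usually combined these genes. A member had UMIs of a median of 6 of the 8 genes (range 3 to 8), and all 8 were seen together in 79 control and 143 Trf2T188A members. At least 5 of the 8 were seen in 91.7% and 94.8% of members, 20.6% and 27.8% of Sparcl1/Rbp4 cells, and 5.40% and 15.3% of Igfbp2/Postn cells. The rule chose members by the mean of these 8 genes, so the shares follow from that choice and are no finding.

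**Figure D1:**
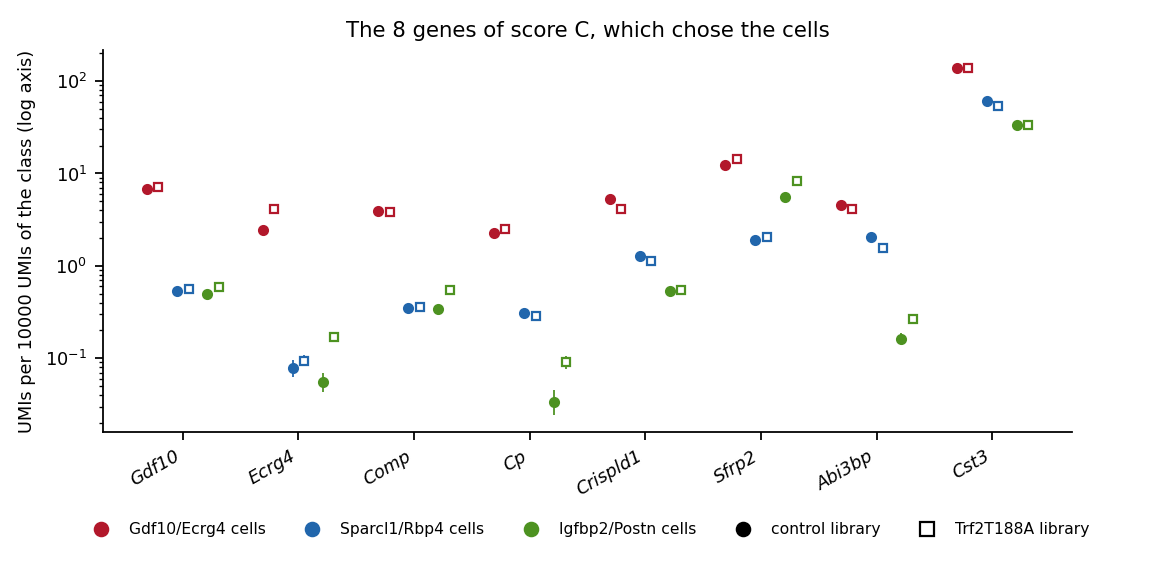
Level of each score C gene (UMIs per 10000, log axis) in Gdf10/Ecrg4, Sparcl1/Rbp4 and Igfbp2/Postn cells of the control (filled) and Trf2T188A (open) libraries, with 95% Poisson intervals. All 8 genes lie highest in the Gdf10/Ecrg4 cells that they selected, Ecrg4 with a wide margin (2.47 and 4.11 against 0.0778 and 0.0942 in Sparcl1/Rbp4 cells) and Sfrp2 with a narrow one against Igfbp2/Postn cells (12.2 and 14.4 against 5.61 and 8.21).

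RefSeq promoters (assembly GRCm38.p6) were found for 5 of the 8 score C genes. The 250 bases upstream of the annotated starts of Gdf10 and Ecrg4, the genes that name the class, are shown because they differ in composition. Capitals mark GGGCGG, the GC box, read on either strand. The Gdf10 sequence is chr14:33923337-33923586 (plus strand) and the Ecrg4 sequence chr1:43730352-43730601 (plus strand), each written 5′ to 3′.
Gdf10: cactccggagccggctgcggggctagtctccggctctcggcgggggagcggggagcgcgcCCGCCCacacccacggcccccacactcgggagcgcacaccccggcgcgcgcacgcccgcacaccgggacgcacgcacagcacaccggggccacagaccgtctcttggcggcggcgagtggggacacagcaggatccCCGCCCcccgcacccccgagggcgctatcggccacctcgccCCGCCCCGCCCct
Ecrg4: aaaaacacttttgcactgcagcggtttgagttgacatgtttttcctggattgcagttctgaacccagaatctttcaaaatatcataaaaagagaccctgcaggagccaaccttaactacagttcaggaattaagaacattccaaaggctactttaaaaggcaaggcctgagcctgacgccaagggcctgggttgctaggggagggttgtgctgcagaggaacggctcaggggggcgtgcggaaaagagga
The Gdf10 stretch had 78.8% G or C and the Ecrg4 stretch 48.4%. GGGCGG occurred in 2 of the 5 score C promoters (40%), in 8 of 14 matched contractile genes (57.1%) and in 32.9% of all 27025 promoters of the same length. TATAAA was in 0 of 5, in 2 of 14 contractile genes (14.3%) and in 13.0% of all. The CArG box, the site of serum response factor, was in 0 of 5 score C promoters, in 1 of 14 contractile genes (7.14%) and in 1.40% of all. These are letter matches on both strands within 250 bases, and a missing match says only that these letters are not in this window.

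Several contractile genes, Myh11, Acta2 and Cnn1 among them, were lower in the Gdf10/Ecrg4 cells than in both comparison classes. Myh11 was at 15.4 and 13.0, against 36.7 and 34.3 in Sparcl1/Rbp4 cells and 44.1 and 37.5 in Igfbp2/Postn cells. Acta2, smooth muscle actin, was at 85.2 and 88.8, against 167 and 178, and 214 and 237. Cnn1, the actin-binding protein calponin, was at 3.92 and 4.37, against 10.8 and 10.1, and 17.3 and 17.9. Both libraries gave the same order of classes for these 3 genes. The score had not used any of them, but it was computed from the same cells.

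A gene was counted as higher or lower between classes where its log2 ratio was at least 1, or at most -1, in both libraries, among genes measured, that is with a UMI in at least 10% of cells of either class. By that count 154 of 8708 genes (1.77%) were lower and 204 (2.34%) higher than in Sparcl1/Rbp4 cells. Against Igfbp2/Postn cells 166 of 8514 (1.95%) were lower and 289 (3.39%) higher. These shares over all genes are the background for the list counts below. Of 17 contractile genes, all measured, 7 were lower and 0 higher than in Sparcl1/Rbp4 cells. Their median log2 ratios were -0.97 and -0.99, beside -0.09 and -0.08 over all genes. Against Igfbp2/Postn cells 10 were lower and 1 higher, with medians of -1.19 and -1.15 beside -0.01 and 0.03. Synpo2, a stress fibre protein, had log2 ratios of -2.06 and -2.26 against Sparcl1/Rbp4 cells, and Ppp1r14a, an inhibitor of myosin phosphatase, of -1.51 and -1.51. Tagln (SM22a), from whose gene the promoter of the mutant was taken, had -0.86 and -0.94. Myocd, the coactivator that drives contractile genes, was at 0.844 and 0.737 against 1.55 and 1.33 in Sparcl1/Rbp4 cells. Pln, phospholamban, the regulator of calcium reuptake, was the gene that went the other way, at 1.04 and 0.608 against 0.208 and 0.172 in Igfbp2/Postn cells.

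Most de-differentiation genes named by the study showed the opposite order. The list was put together with earlier results of these libraries known, so its direction is not independent evidence. Of 11 listed and 10 measured, 9 were higher and 0 lower than in Sparcl1/Rbp4 cells (median log2 ratio 1.95 and 2.36). Against Igfbp2/Postn cells 6 were higher and 2 lower (1.99 and 1.89). Lum, lumican, and Dcn, decorin, are small leucine-rich proteoglycans that coat collagen fibrils. Lum stood at 17.3 and 24.0, against 0.924 and 0.647 in Sparcl1/Rbp4 cells and 1.11 and 2.27 in Igfbp2/Postn cells. Dcn stood at 6.26 and 8.95, against 0.596 and 0.405, and 0.153 and 0.657. Endothelial or immune cells had more Dcn than members, at 13.7 and 15.8, and less Lum, at 2.16 and 2.49, while the other markers of those cells were near 0 in members as given above.

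Fmod, fibromodulin, was at 0.410 (0.371 to 0.452) and 0.684 (0.641 to 0.731), against 0.00669 and 0.0101 in Sparcl1/Rbp4 cells. It had a UMI in 16.2% and 24.9% of members (11.2% and 16.8% after thinning), 0.494% and 1.08% of Sparcl1/Rbp4 cells, and 0 of 95 and 5 of 133 endothelial or immune cells, where a count of 0 allows a share of up to 3.16%. Fmod was therefore seen in a minority of members. Sfrp4, another secreted Wnt modulator, had a UMI in 33.9% and 52.2% of members (21.9% and 33.1% thinned), against 4.21% and 8.27% of endothelial or immune cells. Its share was 9.63% and 8.90% in Sparcl1/Rbp4 cells, and 14.4% and 24.6% in Igfbp2/Postn cells. Tnfrsf11b, osteoprotegerin, the decoy receptor for RANKL, had a UMI in 74.1% and 79.1% of members (63.0% and 63.1% thinned). It was also common in Sparcl1/Rbp4 cells, at 54.7% and 60.8%, and in Igfbp2/Postn cells, at 36.0% and 40.5%. Endothelial or immune cells had it in 11.6% and 15.0%. Mgp, matrix Gla protein, an inhibitor of calcification, was at 788 and 761, against 355 and 338 in Sparcl1/Rbp4 cells and 167 and 181 in Igfbp2/Postn cells. The 2 genes lower than in Igfbp2/Postn cells were Fn1, fibronectin, at 13.3 and 14.6 against 28.5 and 29.6, and Eln, elastin, at 28.0 and 58.3 against 74.4 and 118. The remaining study gene, Tcf21, is not used here.

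**Figure D2:**
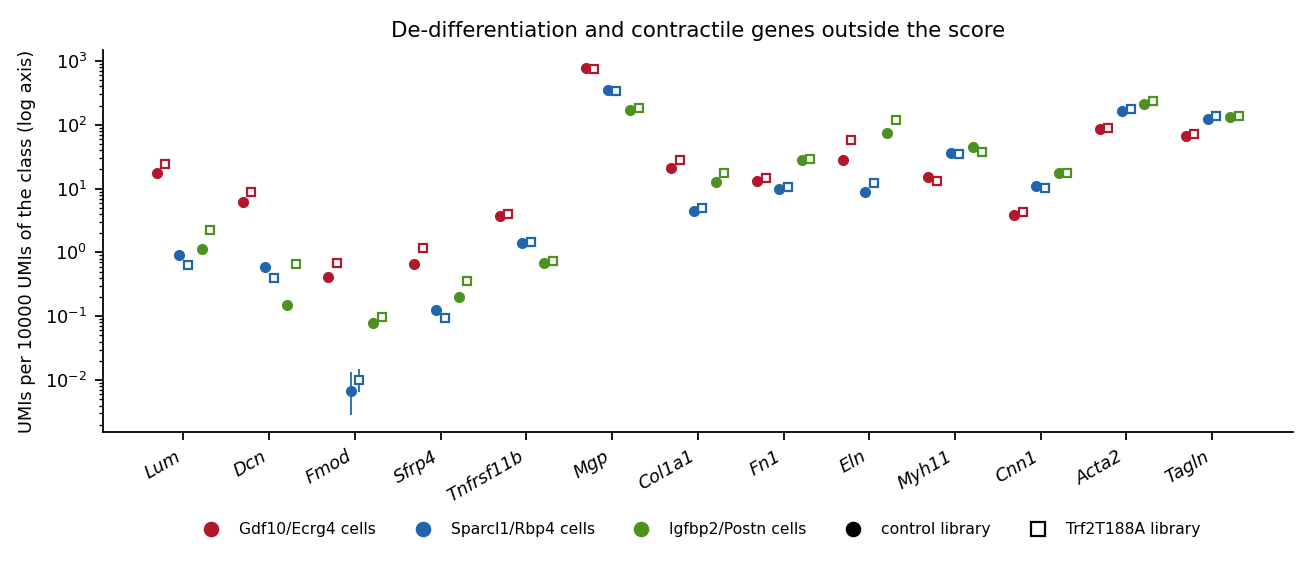
Level (UMIs per 10000, log axis) of de-differentiation genes (Lum to Eln) and contractile genes (Myh11 to Tagln), none used by score C, in the 3 classes of the control (filled) and Trf2T188A (open) libraries, with 95% Poisson intervals. Lum, Dcn, Fmod, Sfrp4, Tnfrsf11b, Mgp and Col1a1 lie highest in Gdf10/Ecrg4 cells, and Myh11, Cnn1, Acta2 and Tagln lie lowest, with Myh11 at 15.4 and 13.0.

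Matrix genes of different kinds set the Gdf10/Ecrg4 cells apart from one or the other comparison class. Of 10 fibrillar collagen genes, 6 were measured, with 3 higher than in Sparcl1/Rbp4 cells and 0 higher or lower than in Igfbp2/Postn cells. Col1a1 was at 21.1 and 28.3, against 4.39 and 5.06, and 12.7 and 17.6. Col3a1 was at 20.7 and 30.8, against 9.08 and 8.95, and 22.0 and 33.2. Of 11 small leucine-rich proteoglycans, 9 were measured, and 5 were higher and 0 lower against each class. Omd, osteomodulin, was at 0.628 and 0.612, against 0.273 and 0.268, and 0.114 and 0.132. Aspn, asporin, lay the other way, at 0.107 and 0.213 against 0.380 and 0.423 in Sparcl1/Rbp4 cells. Bgn, biglycan, differed little, at 49.2 and 52.5 against 42.0 and 44.3.

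Elastic fibre genes, 14 of 15 measured, had 5 higher and 0 lower than in Sparcl1/Rbp4 cells, and 1 higher and 2 lower than in Igfbp2/Postn cells. Efemp1, a fibulin, was the gene higher against both, at 0.193 and 0.349 against 0.0460 and 0.0396, and 0.0465 and 0.0840. Mfap5, a microfibril protein, was lower than in Igfbp2/Postn cells, at 1.08 and 1.90 against 4.36 and 6.73. Basement membrane genes split by chain. Col4a3, the alpha3 chain of collagen IV, was at 1.13 and 1.06 in members, against 0.269 and 0.236, and 0.0982 and 0.0994. Its partner Col4a4 was at 1.21 and 0.976, against 0.386 and 0.339, and 0.128 and 0.125. The widespread alpha1 chain, Col4a1, lay between the other classes, at 6.18 and 5.61 against 4.97 and 4.51, and 10.2 and 9.68. Laminin chains divided in the same way. Lamb1 was at 0.468 and 0.441, against 0.0276 and 0.0260 in Sparcl1/Rbp4 cells, and Lama2 at 0.944 and 0.796, against 0.289 and 0.252. Lama4 was at 0.284 and 0.314, against 0.653 and 0.584. In all, 5 of 16 measured basement membrane genes (of 18) were higher against each class, with 0 lower than in Sparcl1/Rbp4 cells and 1, Col4a2, lower than in Igfbp2/Postn cells.

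**Figure D3:**
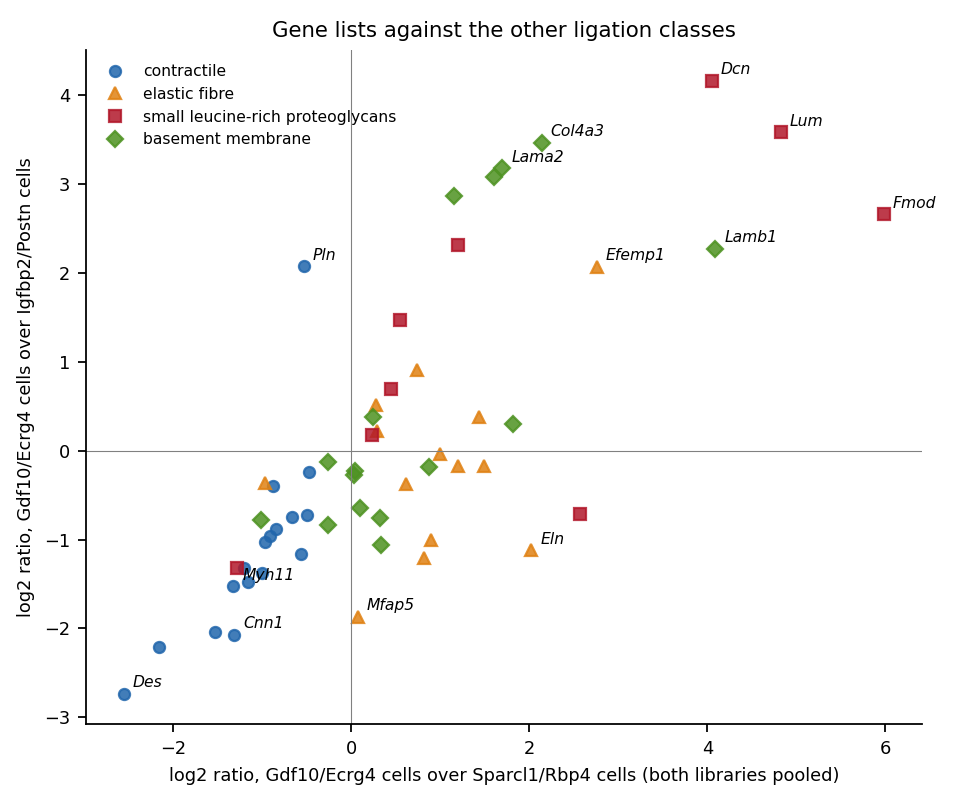
Each point is 1 gene of the contractile, elastic fibre, small leucine-rich proteoglycan or basement membrane list, placed by its log2 ratio in Gdf10/Ecrg4 cells over Sparcl1/Rbp4 cells (horizontal axis) and over Igfbp2/Postn cells (vertical axis), both libraries pooled. Contractile genes lie at the lower left apart from Pln, proteoglycans such as Lum, Dcn and Fmod lie at the upper right together with Col4a3, Lama2 and Lamb1, and Eln lies at the lower right.

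Matricellular proteins, which sit in the matrix and signal to cells, had 4 of 15 measured genes (of 17) higher and 2 lower than in Sparcl1/Rbp4 cells, and 3 higher and 2 lower than in Igfbp2/Postn cells. Sparc, which binds collagen, was at 70.6 and 88.9, against 24.0 and 22.7, and 86.0 and 98.6. Thbs1, thrombospondin 1, was at 4.58 and 4.40, against 1.70 and 1.54, and 3.86 and 3.67. Ccn3 was lower than in both, at 3.50 and 3.78 against 8.81 and 10.1, and 10.5 and 9.91. Spp1, osteopontin, was at 5.40 and 3.13, against 0.687 and 1.02, and 0.0585 and 0.0817. Its UMIs came from few cells. A UMI was seen in 26.5% and 38.2% of members (19.9% and 25.2% thinned), beside 15.8% and 26.3% of endothelial or immune cells, and the 5 richest members held 52.3% and 38.5% of the Spp1 UMIs of the class.

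Cartilage genes were partly present. Sox9, the master regulator of chondrocytes, had a UMI in 54.6% and 60.5% of members (42.2% and 39.9% thinned), in 43.1% and 47.7% of Sparcl1/Rbp4 cells and in 14.7% and 14.3% of endothelial or immune cells. Acan, aggrecan, was not higher in members, at 1.26 and 1.43 against 1.73 and 1.75 in Sparcl1/Rbp4 cells. Of 17 cartilage genes 8 were measured, and 3 were higher and 0 lower against each class. These were Cytl1, a cytokine-like secreted protein, Runx2, the regulator of bone formation, and Phex, an endopeptidase of phosphate balance. Few cells held much of the Cytl1 RNA, with 32.3% and 42.5% of its UMIs in the 5 richest members. Runx2 was at 0.189 and 0.150, against 0.0276 and 0.0163 in Sparcl1/Rbp4 cells, and Phex at 1.77 and 1.29, against 0.561 and 0.428. Of 10 inhibitors of calcification, Mgp, Spp1 and Tnfrsf11b were higher against each class, and Ank, a pyrophosphate exporter, was at 2.39 and 2.34 against 1.40 and 1.45, and 0.682 and 0.580.

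Cartilage collagen came from 3 cells, which were singled out after their values were seen. Col2a1 had 12 UMIs in all control members and 1382 in Trf2T188A members, of which 1366 (98.8%) were in 3 cells with at least 10 UMIs each. The richest of them held 1201 UMIs of Col2a1, 1183 of Ibsp, bone sialoprotein, 262 of Chad, chondroadherin, and 108 of Acan, beside 1 of Myh11, among 29396 UMIs, with a score C of 2.02. The next held 149 UMIs of Col2a1, 65 of Ibsp, 349 of Spp1 and 0 of Myh11, with a score C of 2.90. All 1248 Ibsp UMIs of the Trf2T188A members were in these 2 cells, so that the pooled levels of Col2a1, Ibsp and Chad describe 2 or 3 cells and not the class.

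Secreted signals formed a mixed group. Of 37 Wnt pathway genes 19 were measured, with 3 higher and 0 lower than in Sparcl1/Rbp4 cells, and 5 higher and 1 lower than in Igfbp2/Postn cells. Frzb, a Wnt antagonist, was at 1.37 and 1.80, against 0.646 and 0.678, and 0.351 and 0.545. Rspo3, which potentiates Wnt signals, was at 3.14 and 3.70, against 1.89 and 1.56, and 0.330 and 0.425. Sost, sclerostin, another Wnt antagonist, was not higher, at 11.4 and 10.4 against 12.7 and 17.0, and 16.4 and 15.0. Of 53 TGFb and BMP pathway genes, 42 were measured against Sparcl1/Rbp4 cells, with 3 higher (Bmp4, Fst and Ltbp2) and 1 lower (Bmp3). Over all genes 2.34% were higher and 1.77% lower than in Sparcl1/Rbp4 cells, and 3.39% and 1.95% than in Igfbp2/Postn cells. Counts this small are not read as a result about the pathway. Bmp4, a BMP ligand, was at 0.287 and 0.412, against 0.0535 and 0.0744, and Fst, follistatin, which binds activins, at 0.823 and 1.08, against 0.315 and 0.320. Against Igfbp2/Postn cells 5 of 41 were higher and 2 lower, Tgfb2 among the latter at 1.17 and 1.17 against 3.33 and 3.82. The receptors Tgfbr1 and Tgfbr2 were within a log2 ratio of 1 in both comparisons, Tgfbr2 at 1.05 and 0.935 against 0.977 and 0.861, and 0.643 and 0.518.

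Among 33 further secreted factors, 23 were measured, with 6 higher and 2 lower than in Sparcl1/Rbp4 cells, and 5 higher and 2 lower than in Igfbp2/Postn cells. The shares over all genes were 2.34% higher and 1.77% lower, and 3.39% higher and 1.95% lower. Cxcl12, the chemokine that binds CXCR4, was at 2.39 and 3.01, against 0.730 and 0.631, and 0.965 and 1.12. Angpt2, angiopoietin 2, was at 2.82 and 2.80, against 1.01 and 0.947, and 0.903 and 0.747. Of 31 transcription factors of cell identity, 27 were measured and 2, Runx1 and Runx2, were higher against each class. Runx1 was at 2.02 and 1.64, against 0.786 and 0.549, and 0.834 and 0.744. Klf4, a repressor of contractile genes, differed by less than the limit, at 8.56 and 8.57 against 6.96 and 7.49, and 4.75 and 4.35.

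Proteases, iron carriers, complement and lipid genes followed. Ctsk, cathepsin K, a collagen-cutting protease that cystatin C inhibits, was the 1 gene of 12 measured cathepsins and cystatins (of 15) higher against each class, at 1.14 and 1.48 against 0.265 and 0.289, and 0.363 and 0.643. Of 13 measured matrix proteases and inhibitors (of 21), 4 were higher and 1 lower than in Sparcl1/Rbp4 cells, with Mmp2, a gelatinase, at 1.73 and 2.34 against 0.217 and 0.253. Against Igfbp2/Postn cells 1 of 14 was higher (Timp4, at 1.03 and 0.871 against 0.209 and 0.163) and 1 lower. Over all genes 3.39% were higher and 1.95% lower than in Igfbp2/Postn cells. A count of 1 gene is not read as a result about its list. Of 16 iron and copper genes, Hmox1, haem oxygenase, and Trf, transferrin, were higher against each class. Hmox1 was at 1.56 and 1.64, against 0.407 and 0.424, and 0.330 and 0.389. Of 20 complement and acute phase genes, 9 were measured, with 4 higher than in Sparcl1/Rbp4 cells, and 2 higher and 1 lower than in Igfbp2/Postn cells. C3, the central complement component, was at 0.250 and 0.215, against 0.0226 and 0.0154, and 0.00974 and 0.0320. Apoe, apolipoprotein E, was at 21.9 and 26.9, against 1.39 and 1.47, and 8.28 and 5.26. Lpl, lipoprotein lipase, was at 3.17 and 2.52, against 0.950 and 0.690, and 0.882 and 0.771.

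Markers of other mesenchymal cells were partly shared. Pdgfra, a PDGF receptor of fibroblasts, was at 0.644 and 0.604, against 0.109 and 0.0912, and 0.0652 and 0.0633. Cd34, a marker of fibroblasts and of endothelium, had a UMI in 66.5% and 63.7% of members (53.3% and 44.4% thinned), 17.1% and 14.4% of Sparcl1/Rbp4 cells, and 53.7% and 39.1% of endothelial or immune cells, which express it themselves. Markers of adventitial fibroblasts were mixed. Scara5 and Dpp4 were at 0 UMIs in all members of both libraries, Pi16 at 4 and 0 UMIs and Dpt at 7 and 7. Of the 16 adventitial markers, 8 were measured, with 3 higher and 0 lower than in Sparcl1/Rbp4 cells (median log2 ratio 0.49 and 0.67). Against Igfbp2/Postn cells 2 were higher and 1 lower (0.11 and 0.28). The summed level of the list was 14.3 and 15.0, against 13.3 and 13.1, and 13.8 and 15.7. Of 5 glial markers none was measured, with a summed level of 0.0912 and 0.0714 in members.

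Among genes not used by the scores, those with the highest ratio over all other cells were Fmod, Lum, Penk, Lmo7, Cpxm1, Cdh11, Dcn, C3, Pdgfra, Cd34, Flrt2 and Eps8. Over all genes, 159 of 8533 (1.86%) were higher and 111 (1.30%) lower than in all other cells. Penk, the enkephalin precursor, was at 0.247 and 0.381, against 0.0837 and 0.0387 in Sparcl1/Rbp4 cells. Cdh11, cadherin 11 of mesenchymal cell contacts, was at 0.477 and 0.442, against 0.0895 and 0.0691, and 0.0150 and 0.0272. Among the lowest was Des, the muscle filament desmin, at 0.0506 and 0.0425 against 0.189 and 0.313, and 0.440 and 0.201. Ptprz1, a receptor phosphatase, was at 0.0628 and 0.0486 against 1.05 and 1.85 in Igfbp2/Postn cells. The markers that the study listed for its own cluster of de-differentiated ligation cells gave 54 of 109 higher than in Sparcl1/Rbp4 cells and 62 of 109 higher than in Igfbp2/Postn cells, with 0 lower in either. That list was made from these same cells and is no independent evidence.

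The genes most like score C across cells were Lum, Mgp, Dcn, Cd34, Ace, Plpp3, Itgbl1 and Mxra8, by Spearman's rank correlation over the 4967 control and 5392 Trf2T188A cells. The coefficient was 0.60 and 0.58 for Lum, 0.64 and 0.58 for Mgp, and 0.44 and 0.43 for Mxra8, the last of the 8. The most negative values were those of Dstn, an actin-severing protein, at -0.59 and -0.53, and of Vim, the filament vimentin, at -0.58 and -0.50. Cells of a library share its depth and its free RNA, so these values are descriptions.

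Senescence genes were uneven. Cdkn2a, which encodes the cell cycle inhibitor p16, was at 0.128 (0.106 to 0.152) and 0.182 (0.159 to 0.206). It had a UMI in 80 of 1031 control members (7.76%, 6.20 to 9.56) and in 128 of 1051 Trf2T188A members (12.2%, 10.3 to 14.3), or 4.65% and 6.52% after thinning. A UMI was seen in 2.11% and 1.5% of endothelial or immune cells (2 of 95 and 2 of 133). Sparcl1/Rbp4 cells had 0.658% and 0.680%, and Igfbp2/Postn cells had more than members at 12.3% and 16.9%. Gdf10/Ecrg4 cells thus lay between the other classes for Cdkn2a. Of 12 senescence genes 9 were measured, with 4 higher than in Sparcl1/Rbp4 cells and 1, Icam1, higher than in Igfbp2/Postn cells. Cdkn1a, which encodes p21, was at 4.69 and 3.97, against 2.90 and 2.70, and 2.16 and 2.22. Ccnd1, cyclin D1 of the G1 phase, was at 1.67 and 1.57, against 0.274 and 0.157, and 0.528 and 0.471.

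Within the class, levels of Myh11, Acta2 and Cnn1 went down along score C and those of Lum, Dcn, Fmod, Mgp and Col1a1 went up from the lowest to the highest bin. From the lowest bin (z from 0.5 to 1, 289 cells in each library) to the highest (z of 2 or more, 278 and 343 cells), Myh11 went from 22.6 to 7.49 in control and from 19.1 to 6.91 in Trf2T188A. Acta2 went from 118 to 51.0 and from 127 to 55.2. The summed level of the 17 contractile genes differed between these bins by a log2 ratio of -1.10 and -1.08, and by -1.02 and -1.09 where Cst3 was left out of the score. Members with the highest score were thus those with the least contractile RNA. Lum went from 7.29 to 27.6 and from 10.4 to 39.9, Fmod from 0.0968 to 0.930 and from 0.112 to 1.41, and Apoe from 10.1 to 34.9 and from 10.7 to 44.9. Penk went from 0.0348 to 0.517 and from 0.109 to 0.718. Not every matrix gene followed the score in both libraries. Col3a1 went from 19.1 to 20.6 in control, with 22.6 in the bin between 1.5 and 2, and from 27.0 to 34.7 in Trf2T188A. Eln had 28.3 and 26.2 in the outer bins of control and 55.3 and 61.3 in those of Trf2T188A. Cdkn2a was at 0.120, 0.0891, 0.179 and 0.130 over the 4 control bins and at 0.0423, 0.143, 0.170 and 0.310 over those of Trf2T188A.

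**Figure D4:**
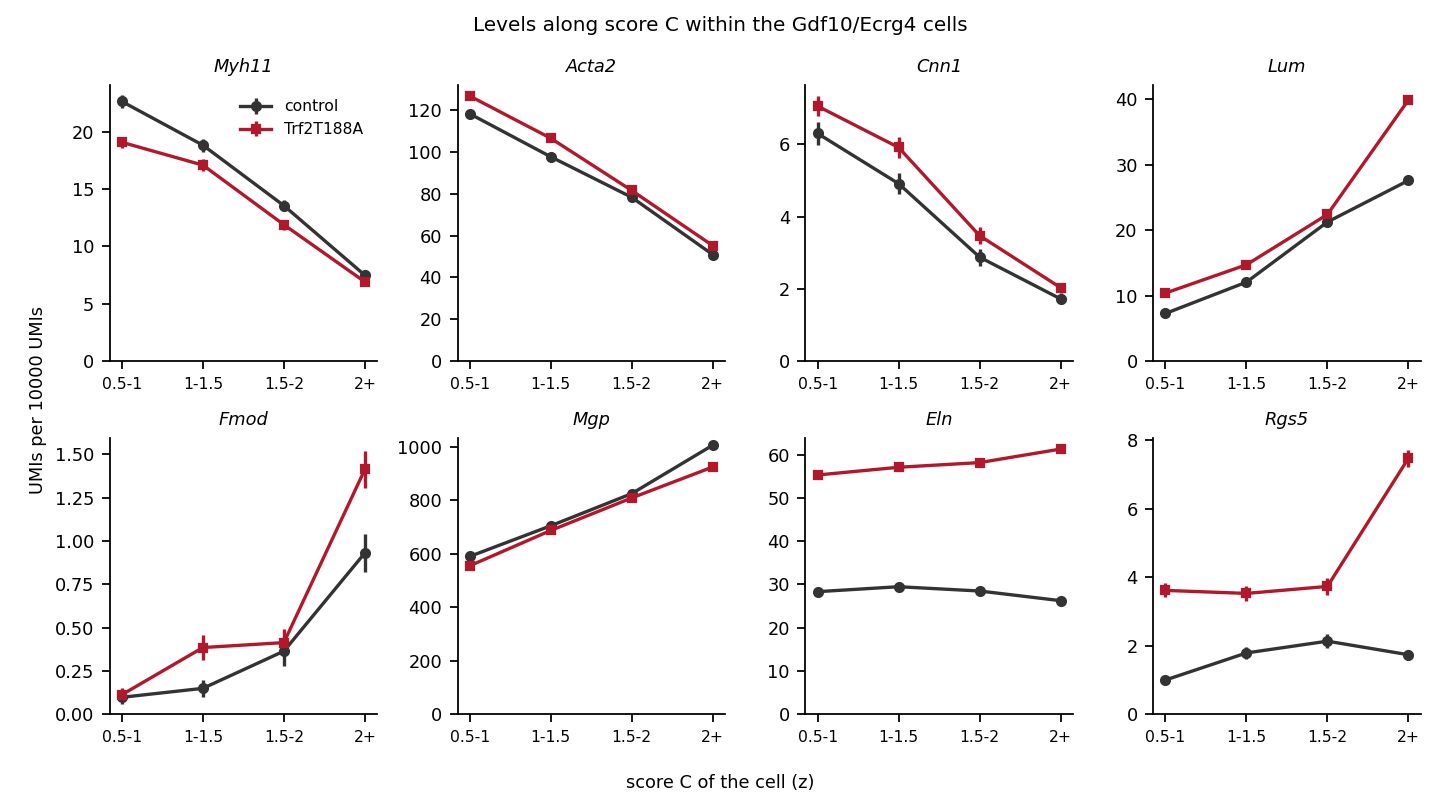
Level (UMIs per 10000) of 8 genes in Gdf10/Ecrg4 cells of the control and Trf2T188A libraries, in 4 bins of score C (z). Bars are 95% counting intervals by the normal approximation. Myh11, Acta2 and Cnn1 are lower in each next bin, and Lum and Mgp higher. Eln goes from 28.3 to 26.2 in control and from 55.3 to 61.3 in Trf2T188A, where each next bin is higher. Rgs5 reaches 7.48 in the top Trf2T188A bin.

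Members also differed by which score came second, a split made after the data were seen. Score A was second in 814 control (79.0%) and 734 Trf2T188A members (69.8%), and score B in 217 and 317. Members that leaned to score B had more Eln (47.4 against 22.4 in control and 84.9 against 47.2 in Trf2T188A) and more Fn1 (22.8 against 10.6, and 20.8 against 12). Those that leaned to score A had more Penk (0.288 against 0.104, and 0.466 against 0.177). They also had more Cp (2.59 against 1.09, and 2.94 against 1.42) and Abi3bp (5.11 against 2.76, and 4.74 against 2.79). Cp and Abi3bp are score C genes that helped to choose the members, so their levels are no finding. Myh11 differed less, at 14.8 against 17.3 and 12.2 against 15.0.

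Between the genotypes, Gdf10/Ecrg4 cells of the Trf2T188A library had more RNA of several matrix genes than those of control, and about as much contractile RNA. Genes were counted at a log2 ratio of at least 0.5 or at most -0.5 among those with a UMI in at least 10% of members of either library. By that count 179 of 8228 genes (2.18%) were higher and 77 (0.936%) lower in Trf2T188A. Within Sparcl1/Rbp4 cells 121 of 8405 (1.44%) were higher and 56 (0.666%) lower, and within Igfbp2/Postn cells 197 of 8078 (2.44%) and 159 (1.97%). These differences compare 2 libraries that also differ in depth, and genotype and library cannot be told apart. Terf2, the gene of TRF2, was at 0.184 and 0.182 in members, a log2 ratio of -0.02 (-0.31 to 0.26). Tags from the end of the transcript do not read the mutated codon. Whether transcripts of the mutant construct would be counted as Terf2 is not stated in the sources used here. This level was therefore not taken as a check of the mutation or of the label.

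Eln had the largest difference among the study's de-differentiation genes, at 28.0 in control and 58.3 in Trf2T188A members, a log2 ratio of 1.06 (1.04 to 1.08). The ratio was 0.46 in Sparcl1/Rbp4 cells and 0.66 in Igfbp2/Postn cells. Of the 10 measured genes of that list 5 were higher in Trf2T188A members and 0 lower, with a median of 0.49 beside -0.01 over all genes. Sfrp4 had 0.82 (0.69 to 0.96), Fmod 0.74 (0.57 to 0.91), Col3a1 0.57 (0.55 to 0.60) and Dcn 0.52 (0.47 to 0.56). Lum, at 0.47, and Col1a1, at 0.43, stayed under the limit, and Mgp, at -0.05, and Tnfrsf11b, at 0.09, differed little. In Sparcl1/Rbp4 cells the same list had a median of 0.01, with Lum at -0.51 and Dcn at -0.56, and in Igfbp2/Postn cells 0.59, with Lum at 1.03 and Dcn at 2.10. As above, the count is not independent evidence.

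Elastic fibre genes had 6 of 14 higher and 0 lower in Trf2T188A members, with a median of 0.43. Besides Eln these were Efemp1 (0.85), Mfap5 (0.81), Mfap4 (0.75), Loxl2 (0.57) and Lox (0.51), the last pair being enzymes that cross-link elastin and collagen. In Sparcl1/Rbp4 cells 0 of 13 elastic fibre genes were higher (median 0.05), and in Igfbp2/Postn cells 4 of 13 (median 0.30). Small leucine-rich proteoglycans had 4 of 9 higher and a median of 0.47 in members. Their median was -0.02 in Sparcl1/Rbp4 cells and 0.21 in Igfbp2/Postn cells. Basement membrane genes had 0 of 16 higher and 1 lower, Lamc3, at -0.58. Of the Wnt genes 5 of 19 were higher, among them the antagonist Wif1 (0.92) and Wnt16 (0.86). Of the TGFb and BMP genes 1 of 41, Bmp4 (0.52), was higher, beside 2.18% over all genes. In Sparcl1/Rbp4 cells 1 of 17 Wnt genes was higher, and in Igfbp2/Postn cells 4 of 17. Contractile genes had 0 of 16 higher and 1 lower, Pln, at -0.78, with a median of -0.06. Myh11 had -0.24 (-0.27 to -0.21) and Acta2 0.06 (0.05 to 0.07). Of the score genes, Ecrg4 had 0.73 (0.67 to 0.80) and Crispld1 -0.35 (-0.41 to -0.30), while Gdf10 itself had 0.05 (0.01 to 0.10). These genes helped to choose the members in both libraries, so their ratios depend on that choice and are no finding. For Ecrg4 the 5 richest members also held 24.7% of its UMIs in control and 13.0% in Trf2T188A.

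**Figure D5:**
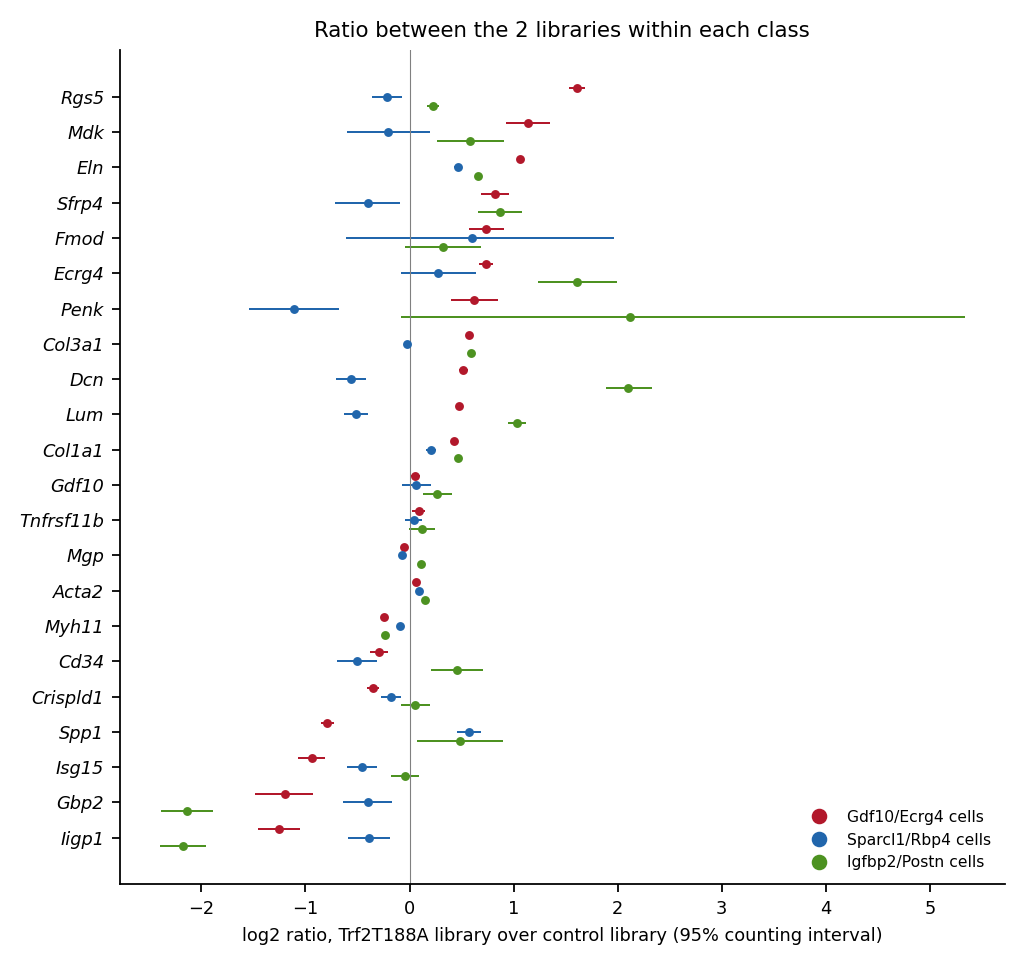
Log2 ratio of the Trf2T188A library over the control library for 22 genes within Gdf10/Ecrg4, Sparcl1/Rbp4 and Igfbp2/Postn cells, with 95% counting intervals. Ecrg4, Gdf10 and Crispld1 are score C genes that helped to choose the Gdf10/Ecrg4 cells. In Gdf10/Ecrg4 cells Rgs5 (1.61), Mdk (1.14) and Eln (1.06) lie farthest to the right and Gbp2 (-1.20) and Iigp1 (-1.25) farthest to the left, and Dcn and Spp1 lie on opposite sides of 0 in Gdf10/Ecrg4 and Sparcl1/Rbp4 cells.

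Rgs5, a regulator of G protein signalling found in pericytes and VSMCs, stood near the top of the ranking in members, with a ratio of 1.61 (1.53 to 1.69) and levels of 1.63 in control and 4.98 in Trf2T188A. It had -0.22 in Sparcl1/Rbp4 cells and 0.23 in Igfbp2/Postn cells. A UMI of Rgs5 was seen in 30.6% and 48.0% of members (23.9% and 40.2% thinned), against 13.7% and 9.77% of endothelial or immune cells. Igfbp2/Postn cells had it more often than members, at 48.2% and 57.2% (38.2% and 44.2% thinned). Sparcl1/Rbp4 cells had it in 16.4% and 16.7%. In the highest score bin its level was 1.73 in control and 7.48 in Trf2T188A. Of the other pericyte markers, Kcnj8 had -0.09, Abcc9 -0.06 and Cspg4 -0.24. Mdk, midkine, a heparin-binding growth factor, had 1.14 (0.93 to 1.35), with levels of 0.254 and 0.559 in members. Enpep, a peptidase of the angiotensin pathway, had 1.33 (0.81 to 1.87), with levels of 0.0415 and 0.104. Of the other genes at the top of the ranking, Snhg9, Ubb-ps, Ftl1-ps1, Nme2, Gm42826 and Bloc1s1 had ratios of 0.87 or more in Sparcl1/Rbp4 cells and in Igfbp2/Postn cells too, and Ubb-ps, Ftl1-ps1 and Nme2 share sequence with near-identical copies, so that their counts are uncertain. Mitochondrially encoded genes had a median of 0.34 in members, beside 0.29 and 0.31 in the other classes, and ribosomal protein genes 0.09, beside 0.07 and 0.10.

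Of 15 interferon-induced genes 9 were measured, and 4 of these were lower in Trf2T188A members and 0 higher, with a median of -0.49, beside -0.32 in Sparcl1/Rbp4 cells and -0.51 in Igfbp2/Postn cells. Iigp1, an immunity-related GTPase, was at 0.596 and 0.250, a ratio of -1.25 (-1.45 to -1.06), beside -0.39 in Sparcl1/Rbp4 cells and -2.17 in Igfbp2/Postn cells. Gbp2, a guanylate-binding protein, was at 0.297 and 0.129, a ratio of -1.20 (-1.48 to -0.92), beside -0.40 and -2.13. Isg15, a ubiquitin-like modifier, was at 1.23 and 0.641, a ratio of -0.94 (-1.07 to -0.81), beside -0.46 and -0.04. Few cells carried much of this RNA. The 5 richest members held 21.6% and 17.5% of Isg15 UMIs and 29.9% and 35.6% of Iigp1 UMIs. The share of members with a UMI of Isg15 was 25.5% in control and 27.5% in Trf2T188A (17.7% and 16.4% thinned), beside 57.9% and 61.7% of endothelial or immune cells. Outside the list, Ifit2, another interferon-induced gene, had -0.92, Sp110 -0.93 and Dixdc1 -0.93. Fbxl17, Zfp862-ps, Rpgrip1 and Gm43361 were also among the lowest and had ratios of -0.85 or less in all 3 classes.

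The other libraries of the series came from atherosclerotic plaques of Myh11-CreERt2/Confetti/ApoE-/- mice without and with the mutant. Those mice were given tamoxifen to label VSMCs and fed a high fat diet. Plaque was dissected from the aorta and carotid arteries. The 1502 and 929 plaque cells are those the study kept from clusters expressing the Confetti reporter. Set beside these, the score genes Ecrg4 and Gdf10 had the following levels over whole libraries. Ecrg4 was at 0.592 and 0.908 in all ligation cells of control and Trf2T188A, and at 7.06 and 11.5 in all plaque cells. Gdf10 was at 1.88 and 1.88 in ligation and at 1.01 and 1.26 in plaque. The plaque cells also had more UMIs, with medians of 22765.5 and 24377 per cell. Vessel, disease, choice of cells and depth thus all differed, so these levels stand side by side without a comparison.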

How the data were processed

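Cells of carotid arteries were profiled by droplet sequencing of transcript ends (10x, v3), 1 library per genotype. The deposited values are a signal of UMIs per 10000 UMIs of each cell on a linear scale, made by the authors from UMI counts with Cell Ranger 6.1.2, build GRCm38, Seurat 3.2.1 and R 3.6.2 per the labels. The authors had removed cells with under 1200 genes, over 6% mitochondrial reads or over 40% of reads from their most expressed genes. UMI counts were recovered by dividing each cell by its smallest value, and 100% of values lay within 0.01 of a whole number. No count model was used, because each genotype had 1 library.

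Levels are pooled UMIs of a class per 10000, with exact 95% Poisson intervals. Genotype ratios have exact binomial intervals and shares have Clopper-Pearson intervals, which all cover counting error only, and PCR and capture errors are not in them. A count of 0 allows 3 counts. Genes with a UMI in at least 10% of cells of either side were measured. Named genes were the 12 highest and 8 lowest against all other cells, the 10 highest and 10 lowest between genotypes, without score genes, ribosomal or mitochondrial genes, beside genes of the lists and the 8 genes of highest Spearman's rank correlation with score C. Some genes that this rule names are not reported here. Some examples from the lists were picked after their values were seen. The members and lists were chosen with earlier results of these data known. No doublets were removed, since Scrublet called 1 of 4967 and 0 of 5392 cells, which is too few for the caller to have worked. Tables were handled in pandas 2.3.3 under Python 3.11.15, with Scanpy 1.11.5 for doublet scores, SciPy 1.17.1 for intervals, matplotlib 3.10.9 for plots and NumPy 2.4.6 throughout. The ratio and interval calculations were also run on simulated Poisson counts. These held no variation between cells or libraries, so they check the calculation only. Other thresholds, depths, pseudocounts and filters were tried.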

Additional observations from a re-analysis of the deposited data

Results flagged for a closer look

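Dcn and Spp1 lay past the genotype limit of 0.5 in opposite directions in Gdf10/Ecrg4 and Sparcl1/Rbp4 cells, the 2 such genes among 7945 measured in both classes. Dcn had a log2 ratio of Trf2T188A over control of 0.52 (0.47 to 0.56) in Gdf10/Ecrg4 cells and of -0.56 (-0.70 to -0.42) in Sparcl1/Rbp4 cells. Spp1 had -0.79 (-0.85 to -0.73) and 0.57 (0.46 to 0.69). The difference between the classes was not tested for either gene, since each genotype had 1 library. Spp1 was concentrated in few cells, and without the richest member of each library its levels were 4.41 and 2.70. Without the 5 richest members of each library, a setting chosen after seeing the data, the levels were 2.60 and 1.93 and the log2 ratio -0.43, under the limit, while that of Dcn was 0.54. The share of members with a UMI of Spp1 was higher in Trf2T188A, at 19.9% and 25.2% after thinning. Against Igfbp2/Postn cells 0 of 7811 genes lay past the limit in opposite directions.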

How the results depend on the processing

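Of 140 recomputed main values, 45 moved and 0 reversed, and of 2898 further values 2171 stayed and 727 moved. No value past its limit changed sign, but 33 of 861 list medians and 31 of 2079 single gene ratios, all under the limit, did. Without the 5 richest members of each library, chosen after seeing the data, 8 of 63 genotype ratios moved, and Spp1 went under the limit (-0.43). Where alternatives changed a value, the cause was not tested. With a score threshold of 1, members made up 14.9% and 14.1% of the libraries (20.8% and 19.5% before), the contractile medians were -1.22 against Sparcl1/Rbp4 and -1.34 against Igfbp2/Postn cells (-0.97 and -1.17 before), and the de-differentiation medians 2.37 and 2.08 (2.20 and 1.94 before). With cells thinned to 5000 UMIs, 130 genes were higher and 92 lower than in Sparcl1/Rbp4 cells, the contractile medians were -0.89 and -1.07, and the de-differentiation median between genotypes was 0.40. Without the highest Scrublet scores the contractile medians were -1.02 and -1.21 and the de-differentiation median against Sparcl1/Rbp4 cells 2.30. With means over cells and a pseudocount of 1, 17 genes were higher and 15 lower than in Sparcl1/Rbp4 cells, 18 and 25 than in Igfbp2/Postn cells, and 5 and 3 between genotypes, with contractile medians of -0.77 and -0.97 and de-differentiation medians of 1.30, 0.65 and 0.37. With a pseudocount of 0.1 these were 106 and 70, 137 and 85, and 73 and 23 genes, contractile medians of -0.90 and -1.15, and de-differentiation medians of 1.59 against Igfbp2/Postn cells and 0.42 between genotypes. With no filter on detection, 909 genes were higher and 402 lower than in Sparcl1/Rbp4 cells, 1260 and 371 than in Igfbp2/Postn cells, and 2217 and 1877 between genotypes. The de-differentiation median against Sparcl1/Rbp4 cells was 2.24 with z scores within each library and 2.17 with no limit on z for the comparison cells, for which the contractile median against Igfbp2/Postn cells was -1.10. That median was -1.18 with ribosomal and mitochondrial genes out of the total. No paired analysis was possible because each genotype had 1 library, and for the same reason no library could be left out.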
